A study of Homo sapiens with 2 samples.

Results

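Keratin genes were taken as all probes whose annotated symbol is KRT followed by digits, or an older hair keratin name (KRTHA or KRTHB followed by digits), with a value on at least 1 of the 2 arrays. This gave 32 genes, each read by a single probe, of 10750 named genes with a value on either array. The annotation listed 40 keratin genes on 41 probes, and 8 of them had no value on either array. The measured set held 5 simple epithelial keratins, 16 keratins of stratified epithelia, 10 hair keratins and 1 inner root sheath keratin, with 19 of type I and 13 of type II. The first array set ACC-MESO1 human mesothelioma cells depleted of CD26 against control ACC-MESO1 cells, and the second set MSTO-211H human mesothelioma cells transfected with CD26 in the pLNCX2 vector against control MSTO-211H cells (n = 1 array each). Both are established cell lines, grown in medium with fetal calf serum. The labels name the depleting agent as siRNA in the design and as shRNA in the treatment protocol, and do not give the treatment of the control cells and whether clones or pools were used. They also give the RNA number 3 both to the depleted ACC-MESO1 cells and to the MSTO-211H control. The control of the second array is taken here from its cell line label, and every transfection value rests on that. Each value is a log2 ratio of manipulated (Cy3) over control (Cy5) cells, and the values of each array have a median of 0 as deposited.

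Keratins are the intermediate filament proteins of epithelial cells. They assemble only as pairs of a type I (acidic) and a type II (basic) protein, so a cell that makes filaments expresses at least 1 member of each type. Simple epithelia and mesothelium carry KRT8 with KRT18, and KRT7 with KRT19, and mesothelial cells are unusual among mesodermal cells in doing so. Stratified epithelia use KRT5 with KRT14 in their basal layer and KRT1 with KRT10 above it, while hair keratins form the hard filaments of hair and nail. Filaments are anchored at desmosomes and hemidesmosomes, and pathologists use keratin 5, 7, 8, 18 and 19 staining when they diagnose mesothelioma.

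The comparisons ask how keratin transcripts differ when CD26 is lowered or raised. DPP4, which encodes CD26, was at -3.92 on the depletion array and at 5.51 on the transfection array, in the direction of the labels both times. With 1 array per comparison and no dye swap, no value has a p-value or an error from replicates, and a dye effect cannot be told apart from a difference between the cells. The nearest thing to a repeat was the spread between different probes of the same gene, a pooled SD of 0.42 after depletion (566 genes) and 0.45 after transfection (471 genes). Intensities were not used here, so the ratios do not say which keratins these lines express at all, and the cell type could not be checked from marker levels. Values are relative to each array's median. Centring on ribosomal protein genes instead would add 0.32 to every value after depletion and 0.23 to every value after transfection.

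Most keratins lay close to their control on both arrays. In the depleted ACC-MESO1 cells, 24 of 31 measured keratins had a log2 ratio under 0.5 in size (77.4%, the same share as the 77.4% of all genes), and the median was 0.013, against 0.012 over all 10347 genes. In the transfected MSTO-211H cells, 23 of 27 were under 0.5 in size (85.2%, against 77.5% of all genes), with a median of -0.020 against 0.0072. The exceptions after depletion were 4 keratins at least 2-fold higher, KRT24, KRT34, KRT17 and KRT38, and none at least 2-fold lower. That is 12.9% of the measured keratins, where the shares over all genes were 3.31% higher and 1.56% lower by the same rule. KRT24, KRT34 and KRT17 had a value on the depletion array alone, where 9.99% of such genes were at least 2-fold higher. Among keratins with a value on both arrays the count was 1 of 26 (3.85%), against 2.27% of all genes on both. After transfection, KRT18 was the single keratin at least 2-fold lower, where 1.37% of all genes were, and none was at least 2-fold higher, against 4.09%.

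**Figure D1:**
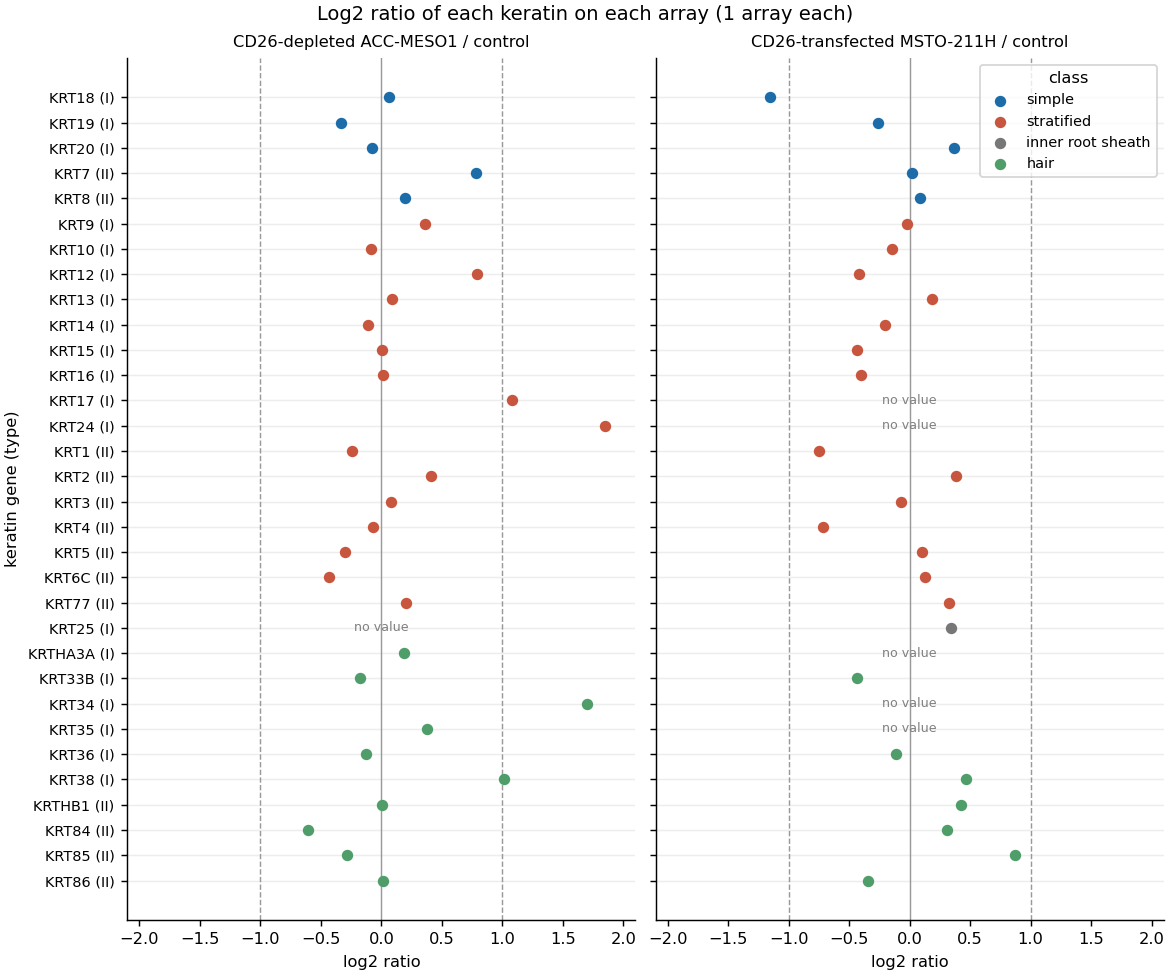
Log2 ratio of each of the 32 keratins (rows, with type I or II in brackets) in CD26-depleted ACC-MESO1 cells over control (left) and CD26-transfected MSTO-211H cells over control (right), 1 point per gene and array, coloured by class; dashed lines mark 2-fold. KRT24 (1.85), KRT34 (1.70), KRT17 (1.08) and KRT38 (1.01) lie past the right-hand line on the left panel, and KRT18 (-1.16) past the left-hand line on the right panel.

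Of the simple keratins, KRT7, KRT8, KRT18 and KRT19 are those that mesothelium carries. KRT5, also stained in the diagnosis of mesothelioma, is counted here with the stratified keratins. KRT18, the type I partner of KRT8, was at 0.06 in depleted cells and at -1.16 in transfected cells, 2.23-fold lower than their control and rank 80 from the lowest of 9359 genes. KRT8 itself was at 0.20 and 0.09, near its control on both arrays. KRT7, found in ducts and mesothelium, was at 0.78 after depletion (1.72-fold higher) and at 0.02 after transfection. The acidic keratin KRT19 was below its control on both arrays, at -0.33 and -0.27, each within the SD between probes of a gene. KRT20, a keratin of gut and urothelium, was at -0.08 and 0.37. As a class, the 5 simple keratins had a median of 0.06 after depletion, from -0.33 to 0.78, and of 0.02 after transfection, from -1.16 to 0.37. With the ribosomal centring KRT18 was short of 2-fold (-0.93) and KRT7 past it (1.10).

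Stratified keratins spanned 2.29 log2 units after depletion and 1.13 after transfection, where the 2 highest had no value. KRT24, a type I keratin of differentiating keratinocytes, had the highest keratin value after depletion at 1.85 (3.61-fold), and ranked 53 among 10347 genes. KRT17, induced in wounded skin and made in hair follicles and glands, was at 1.08 (2.11-fold, rank 282). KRT24 and KRT17 had no value on the transfection array. KRT12, the corneal keratin, came next at 0.79 after depletion (1.11 with the ribosomal centring), but was at -0.42 after transfection. KRT2, of the upper epidermis, was above its control on both arrays at 0.41 and 0.38. KRT9, the keratin of palms and soles, was at 0.36 and -0.02, and KRT77, found in sweat gland ducts, at 0.20 and 0.33.

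The basal pair KRT5 and KRT14 lay near its controls. KRT5 was at -0.30 after depletion and 0.10 after transfection, and KRT14 at -0.11 and -0.21. KRT6C, listed under the older symbol KRT6E, was the lowest stratified keratin after depletion at -0.44 and was at 0.13 after transfection. KRT6C is a close paralog of KRT6A and KRT6B, so that its probe is open to cross-hybridisation, and KRT6B had no value on either array. KRT16, the usual partner of KRT6A in activated skin, was at 0.01 and -0.40. KRT15, a basal and hair follicle keratin, was at 0.0035 and -0.43.

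None of the 14 stratified keratins measured after transfection was past 2-fold, and the lowest were the epidermal keratin KRT1 (-0.75, 1.68-fold lower) and KRT4 of the mouth and oesophagus (-0.72, 1.64-fold lower). Their values after depletion were -0.24 and -0.07. Their partners KRT10 and KRT13 stayed nearer to 0, at -0.09 and -0.15 for KRT10 and at 0.08 and 0.19 for KRT13. KRT3 of the cornea was at 0.08 and -0.07. The 16 stratified keratins had a median of 0.04 after depletion, from -0.44 to 1.85, and the 14 measured after transfection had a median of -0.11, from -0.75 to 0.38. Within the class, 7 of 9 type I members were above 0 after depletion and 1 of 7 after transfection, while for type II members the counts were 3 of 7 and 4 of 7. Over all genes 51.3% and 50.7% were above 0. With the ribosomal centring, 4 of 7 stratified type I keratins were above 0 after transfection, where 74.2% of all genes were.

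Hair keratins gave the remaining values past 2-fold. KRT34, a keratin of the hair cortex listed under its older name KRTHA4, was at 1.70 after depletion (3.26-fold, rank 76 among 10347 genes) and had no value after transfection. KRT38, also a type I hair keratin, was at 1.01 after depletion, just past 2-fold (rank 330), and at 0.46 after transfection. The other type I members were nearer their controls, with KRT35 of the hair matrix at 0.37 after depletion only, KRT36 at -0.13 and -0.11, and KRT33B at -0.17 and -0.43. The probe listed as KRTHA3A, a name that RefSeq gives to both KRT33A and KRT33B, was at 0.19 after depletion.

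Type II hair keratins included the highest keratin value after transfection and the lowest after depletion. KRT85, a keratin of the early hair shaft, was at -0.28 after depletion and 0.87 after transfection (1.83-fold higher). KRT84, of nail and tongue, was at -0.61 after depletion (1.52-fold lower) and at 0.31 after transfection. KRT86 was at 0.01 and -0.35, and the probe listed as KRTHB1, shared by name between KRT81 and KRT86, at 0.01 and 0.43. The 10 hair keratins had a median of 0.0080 after depletion, from -0.61 to 1.70, and the 7 measured after transfection a median of 0.31, from -0.43 to 0.87. KRT25 of the inner root sheath had a value after transfection only, at 0.34. With the ribosomal centring KRT85 was past 2-fold after transfection (1.10).

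The RefSeq promoter table held 18 of the 32 keratins, KRT17 and KRT18 not among them. The windows of KRT24, KRT34 and KRT38 are shown because these genes were past 2-fold after depletion, and that of KRT33B because it lies beside KRT34 on chromosome 17 and was not high. Each run is the 250 bases before the annotated start, 5′ to 3′ on the gene's own strand (minus for all 4). Capitals mark TATAAA, the core of the TATA box, and in KRT38 also CCGCCC, the GC box GGGCGG read on the other strand. The windows are, on GRCh38.p14, chr17:40703753-40704002 for KRT24, chr17:41382307-41382556 for KRT34, chr17:41440984-41441233 for KRT38 and chr17:41369814-41370063 for KRT33B.
KRT24: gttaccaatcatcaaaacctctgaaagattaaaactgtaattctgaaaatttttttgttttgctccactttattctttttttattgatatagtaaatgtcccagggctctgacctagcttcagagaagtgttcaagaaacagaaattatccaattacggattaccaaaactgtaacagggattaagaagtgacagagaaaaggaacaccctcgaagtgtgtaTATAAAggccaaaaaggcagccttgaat
KRT34: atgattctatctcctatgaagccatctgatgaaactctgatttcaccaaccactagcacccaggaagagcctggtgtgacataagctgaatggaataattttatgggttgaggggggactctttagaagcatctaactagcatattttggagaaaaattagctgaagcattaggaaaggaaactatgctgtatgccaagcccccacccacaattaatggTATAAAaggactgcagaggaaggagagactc
KRT38: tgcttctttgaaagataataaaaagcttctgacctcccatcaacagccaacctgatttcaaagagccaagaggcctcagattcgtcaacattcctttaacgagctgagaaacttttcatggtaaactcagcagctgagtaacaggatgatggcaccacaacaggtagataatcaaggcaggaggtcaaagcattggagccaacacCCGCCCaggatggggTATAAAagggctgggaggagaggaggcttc
KRT33B: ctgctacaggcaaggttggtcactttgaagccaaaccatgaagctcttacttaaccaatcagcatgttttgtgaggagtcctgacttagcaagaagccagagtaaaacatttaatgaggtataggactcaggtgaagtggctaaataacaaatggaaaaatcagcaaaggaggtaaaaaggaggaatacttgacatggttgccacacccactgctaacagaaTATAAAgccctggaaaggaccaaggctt

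All 4 windows hold TATAAA, with its first base at positions -31 to -28 from the start. Over both strands, TATAAA was in 9 of the 18 keratin windows (50%) and in 10.7% of all 35114 promoter windows of the same length. It was in 5 of 7 hair, 3 of 8 stratified and 0 of 2 simple keratin windows, those of KRT8 and KRT20. The GC box GGGCGG was in 2 of 18 keratin windows, KRT9 and KRT38, against 42.6% of all windows, and TGANTCA, the core of the AP-1 site, in 0 of 18 against 6.57%. Keratin windows had a median GC content of 42.8%, against 58% over all windows. Keratins that were not high after depletion, such as KRT33B (-0.17), KRT10 (-0.09) and KRT84 (-0.61), also hold TATAAA in their windows.

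The 3 main classes overlapped on both arrays. After depletion their medians were 0.06 (simple), 0.04 (stratified) and 0.0080 (hair), and each class held members on both sides of 0. After transfection the medians were 0.02, -0.11 and 0.31, over 5, 14 and 7 genes, and the range of each class spanned more than 1 log2 unit. Of the keratins without any value, 4 were hair keratins (KRT31, KRT32, KRT37 and KRT82), 2 inner root sheath keratins (KRT27 and KRT28), 1 stratified (KRT6B) and 1 outside these classes (KRT23). All 5 simple keratins had values on both arrays. A value was present for 78.0% of keratin probes on either array, against 85.6% of all named probes.

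The keratins past 2-fold after depletion, KRT24, KRT34, KRT17 and KRT38, are all of type I, 4 of 18 measured, beside 0 of 13 type II keratins. Over all genes 3.31% were at least 2-fold higher there. KRT24, KRT34 and KRT17 had a value on the depletion array alone, where 9.99% of such genes were at least 2-fold higher. Among keratins on both arrays, only KRT38 was past 2-fold after depletion. The medians of the types were 0.07 and 0.0065 on the depletion array. After transfection they were -0.18 over 14 type I and 0.10 over 13 type II keratins, with 4 of 14 and 9 of 13 above 0 (8 of 14 and 10 of 13 with the ribosomal centring). Over all genes 50.7% were above 0 there, and 74.2% with the ribosomal centring, near the 76.9% of type II keratins and above the 57.1% of type I. A shift of all values leaves their order as it is. Under both centrings, 4 of 14 type I and 9 of 13 type II keratins were therefore above the median of all genes. With each chromosome centred on its own median, 5 of 14 and 9 of 13 were above it. Type I genes except KRT18 lie together on chromosome 17, and type II genes with KRT18 on chromosome 12. The median over other genes of chromosome 17 was 0.0074 after depletion and -0.03 after transfection, and 2.56% of 586 were at least 2-fold higher after depletion. For chromosome 12 the medians were 0.04 and -0.05, and the share was 5.08% of 472.

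**Figure D2:**
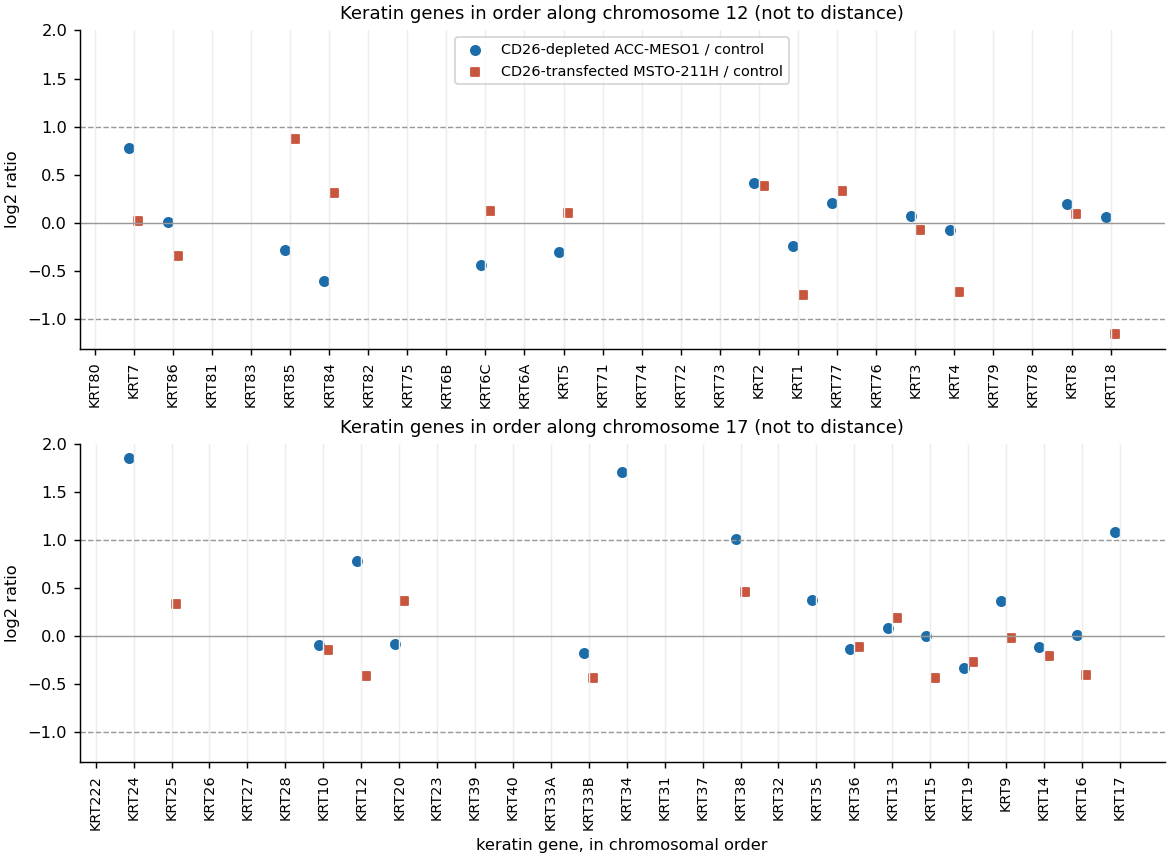
Log2 ratio (vertical axis) of the keratin genes in their order along chromosome 12 (top) and chromosome 17 (bottom), not to distance, for the depletion array (circles) and the transfection array (squares); genes without a marker had no value, and the probes listed as KRTHA3A and KRTHB1 are not drawn. KRT24, KRT34, KRT38 and KRT17 lie on chromosome 17, with keratins near 0 such as KRT33B (-0.17) and KRT16 (0.01) next to KRT34 and KRT17. Only KRT31 and KRT37, without a value, lie between KRT34 and KRT38.

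In the RefSeq gene order of GRCh38.p14, KRT33B (-0.17 after depletion) lies beside KRT34 (1.70), and KRT16 (0.01) beside KRT17 (1.08). The keratins next to KRT24 and KRT38 had no value on that array. Between KRT34 and KRT38 (1.01) lie only KRT31 and KRT37, so KRT34 and KRT38 were consecutive among the keratins drawn with a value there. Other neighbours were alike on that array, such as KRT13 (0.08) and KRT15 (0.0035), or KRT14 (-0.11) and KRT16. At the end of the keratin genes on chromosome 12, KRT8 and KRT18 are adjacent, at 0.09 and -1.16 after transfection.

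Because filaments need both types, the pairs that share a tissue were set side by side. Of the 9 pairs listed, 7 had both partners on both arrays. A shift common to a whole array, as in the ribosomal centring, leaves the difference within a pair as it is, and centring by chromosome moved it by at most 0.03 on the log2 scale. After depletion, KRT8 and KRT18 differed by 0.13, the smallest difference of the 7, and after transfection by 1.25, the largest. KRT7 and KRT19 gave the opposite order, with KRT7 above KRT19 by 1.11 after depletion and by 0.28 after transfection. For comparison, the 2 probes of a gene had a median gap of 0.35 on the first array and 0.31 on the second. A larger gap than 1.16 and 1.34 was seen in 5% of such genes, so neither pair went past that limit.

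**Figure D3:**
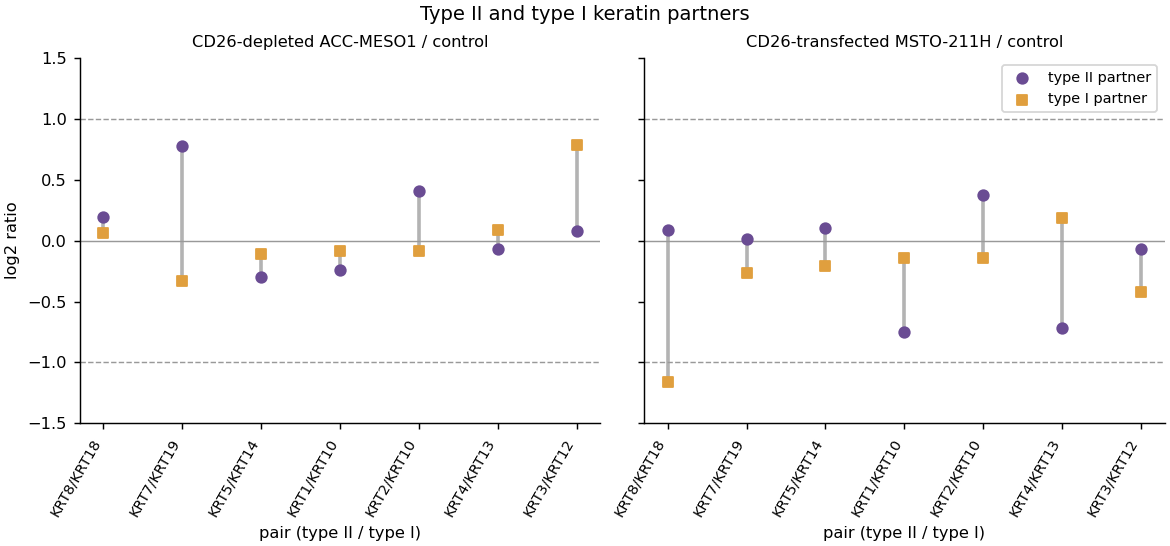
Log2 ratios of the type II (circles) and type I (squares) partner of 7 keratin pairs, joined by a bar, on the depletion array (left) and the transfection array (right); dashed lines mark 2-fold. The longest bars are KRT7/KRT19 on the left (1.11) and KRT8/KRT18 on the right (1.25).

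The other 5 pairs lay between these extremes on each array. KRT5 and KRT14 differed by 0.19 and 0.31, with KRT5 the lower after depletion and the higher after transfection. KRT1 was below KRT10 on both arrays, by 0.15 and 0.60, and KRT2 above KRT10 on both, by 0.50 and 0.53. KRT4 was below KRT13 by 0.15 and 0.90. KRT3 was below KRT12 by 0.71 after depletion and above it by 0.35 after transfection. The median size of the difference was 0.19 and 0.53 over the 7 pairs, of which KRT1/KRT10 and KRT2/KRT10 share a partner.

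Across the arrays, 26 keratins had values on both. Following CD26 in both cell lines means opposite signs, which 12 of the 26 keratins had, while 14 had the same sign (53.8%, against 53.1% of 8956 genes). None of the 12 was at least 0.5 in size on both arrays. Opposite signs with that size on both arrays were found for 2.4% of the 8956 genes, under 1 gene in 26, so a count of 0 is near that share. The nearest were KRT12 (0.79 and -0.42), KRT84 (-0.61 and 0.31) and KRT85 (-0.28 and 0.87). KRT38 (1.01 and 0.46) and KRT2 (0.41 and 0.38) led those above 0 on both arrays. Pearson's r between the arrays was 0.07 across the 26 keratins and 0.06 across all genes, a description over genes, which are not independent.

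**Figure D4:**
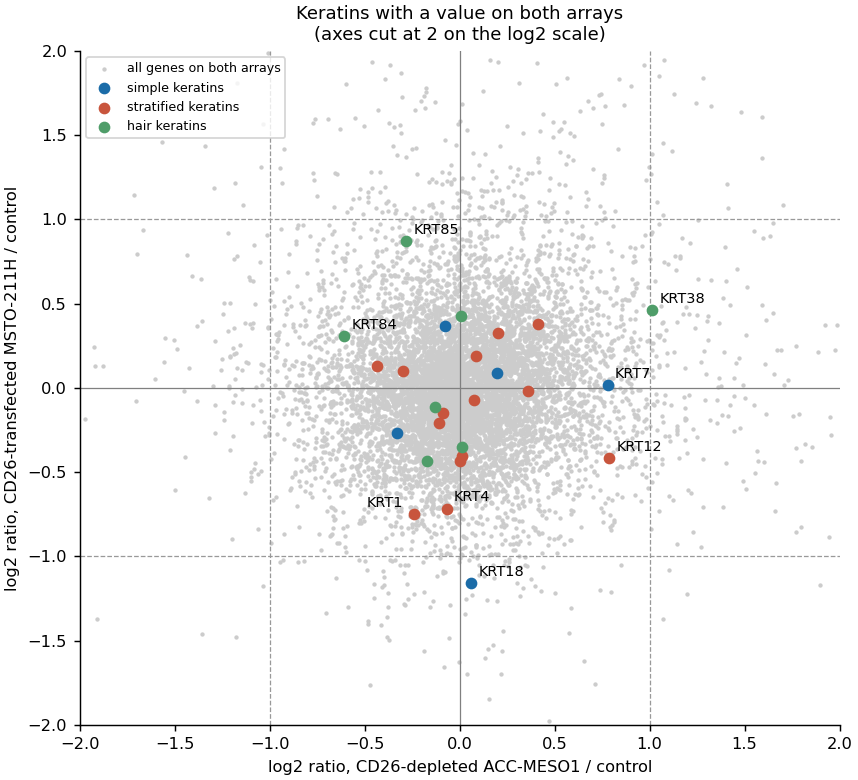
Log2 ratio after CD26 depletion (horizontal axis) against that after CD26 transfection (vertical axis) for the 26 keratins on both arrays (coloured by class) over all 8956 genes (grey), with axes cut at 2; dashed lines mark 2-fold. The keratins lie within the cloud of all genes, with KRT38 (1.01, 0.46) past the right-hand line and KRT18 (0.06, -1.16) below the lower line.

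KRT24, KRT34, KRT17, KRT35 and the probe listed as KRTHA3A had values on the depletion array alone. All 5 were above 0 there, and KRT24, KRT34 and KRT17 were past 2-fold. Of all genes with a value on that array alone, 9.99% of 1391 were at least 2-fold higher, against 2.27% of the 8956 genes measured on both. Among the 26 keratins on both arrays, KRT38 alone was at least 2-fold higher after depletion. The part of missing values in the depletion result was not tested.

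Lists of proteins that work with keratins were read the same way. Desmosome and plakin proteins, which anchor keratin filaments at cell contacts, had medians of -0.03 over 13 genes after depletion and 0.15 over 12 after transfection. The desmosomal cadherin gene DSG1 was past 2-fold on both arrays (1.59 and 1.61), and PKP2, a plakophilin, was at 1.10 after transfection with no value after depletion. That is 1 of 13 genes after depletion and 2 of 12 after transfection, where 3.31% and 4.09% of all genes were at least 2-fold higher. Of genes with a value after transfection alone, 28.5% were that high. DSP, the plakin that binds keratin, was at 0.23 and 0.22. JUP, the plakoglobin gene, was low on both arrays (-0.41 and -0.48), and PKP4 was at -0.47 after depletion. PLEC, a linker of keratin to hemidesmosomes, was at 0.97 after depletion, just short of 2-fold, and -0.12 after transfection. Hemidesmosome proteins had medians of 0.39 and -0.25 over 4 genes, from ITGB4 (-0.55) to ITGA6 (0.55) after depletion and from ITGB4 (-0.38) to CD151 (0.12) after transfection, with none past 2-fold.

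Genes of the cornified envelope, the cross-linked shell of terminal keratinocytes, were above 0 in 9 of 11 cases after depletion (median 0.22) and in 1 of 9 after transfection (median -0.31). With the ribosomal centring these were 11 of 11 and 4 of 9, where 82.0% and 74.2% of all genes were above 0. None was past 2-fold on either array. TGM1, the transglutaminase of the envelope, was the highest after depletion (0.76), and SPRR1A the lowest (-0.19). After transfection CDSN was the highest (0.19) and TGM3 the lowest (-0.70). IVL, the envelope precursor involucrin, was at 0.04 and -0.03.

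Regulators and binding partners of keratins had medians of -0.14 over 19 genes and -0.13 over 15. None was past 2-fold after depletion, where the 14-3-3 protein gene SFN (0.85) was highest and the grainyhead factor GRHL1 (-0.96) lowest. Past 2-fold after transfection were the homeobox gene MSX2 (1.65) and OVOL2 (1.28), which were higher, and HOXC13 (-1.30), a homeobox regulator of hair keratin genes, which was lower. Over all genes 4.09% were at least 2-fold higher there and 1.37% lower. OVOL2 had no value after depletion, and 28.5% of genes with a value after transfection alone were at least 2-fold higher. HOXC13 was at -0.38 after depletion. TP63, the master factor of stratified epithelia, was at -0.25 after depletion only.

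Other intermediate filament genes had medians of -0.11 over 14 genes after depletion and 0.02 over 12 after transfection, and none was past 2-fold. VIM, encoding the vimentin that mesothelioma cells carry beside keratins, was at -0.12 and 0.32, the latter the highest of the list. BFSP1, a lens filament gene, was the highest after depletion (0.95) and LMNB1 the lowest (-0.74), and NEFM was the lowest after transfection (-0.68). Mesothelial markers other than keratins had medians of 0.09 over 6 genes and -0.12 over 5. Mesothelin, MSLN, was at 0.59 after depletion and -1.31 after transfection. It was the 1 marker of 5 past 2-fold after transfection, and the share of all genes that low was 1.37%. The other markers did not follow it, with UPK3B the highest there (0.66), WT1 at 0.57, CALB2 at -0.12 and ITLN1 at -0.16. After depletion ITLN1 was at 1.38, the 1 marker of 6 past 2-fold, where 3.31% of all genes were at least 2-fold higher. The lowest there was WT1 (-0.37).

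**Figure D5:**
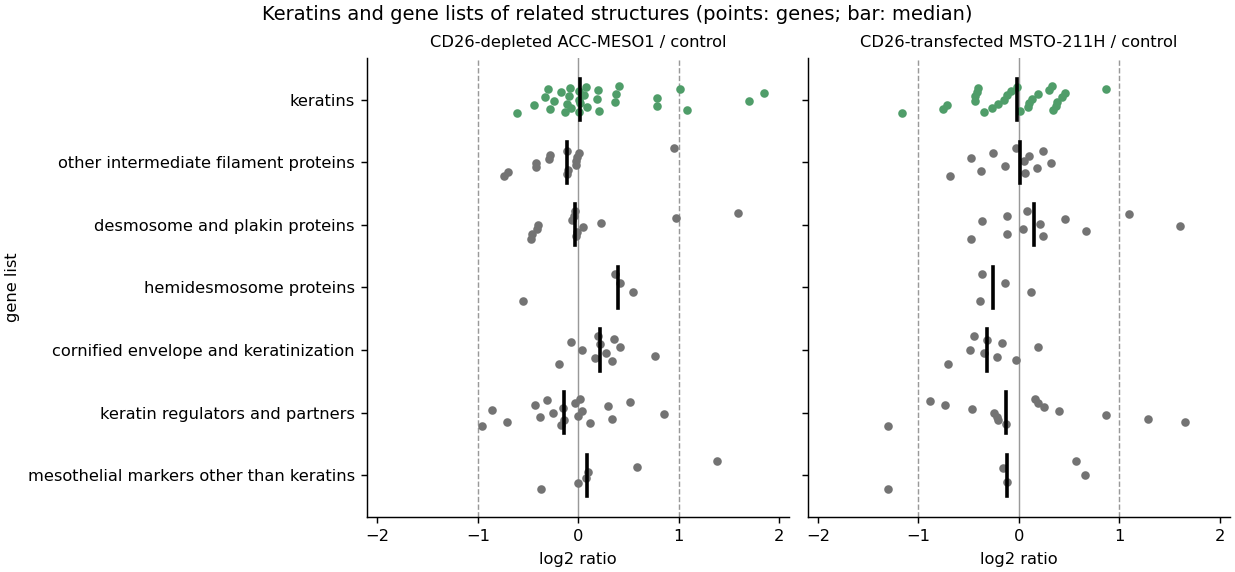
Log2 ratios of the keratins and of 6 lists of related genes on the depletion array (left) and the transfection array (right), 1 point per gene, with a bar at each list's median; vertical spread of points within a row has no meaning and dashed lines mark 2-fold. The cornified envelope list has its median at 0.22 on the left and -0.31 on the right, while the keratins have theirs near 0 on both.

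Markers of other cell types were also read. After depletion, 1 of 7 measured fibroblast markers was past 2-fold, MFAP5 (1.96), over a range from -0.14 to 1.96, and none of 2 lymphocyte, 3 myeloid and 5 endothelial markers. After transfection, CD3E (1.88) was past 2-fold among 3 lymphocyte markers, which ranged from -0.76 to 1.88, and none of 5 fibroblast, 3 myeloid and 4 endothelial markers. Over all genes, 3.31% were at least 2-fold higher and 1.56% lower after depletion, and 4.09% and 1.37% after transfection. MFAP5 had a value after depletion alone and CD3E after transfection alone, where 9.99% and 28.5% of such genes were at least 2-fold higher. The part of other cell types in the keratin values was not tested.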

How the data were processed

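The authors deposited normalized log2 ratios from 2-colour arrays, with Cy5 on control and Cy3 on manipulated cells and the direction given in the labels. Per the labels' protocols, RNA extracted with TRIZOL was amplified and coupled to dyes through amino allyl groups. The background correction, normalization and reason for empty probes are steps not given in the sources used here. Of 24267 probes, 19622 and 17737 had a value, each array with a median of 0. The number of arrays limits precision.

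Probe symbols came from the platform annotation (13395 probes with 1 symbol, 10872 with none) and were updated through RefSeq GRCh38.p14. Among the 32 keratins, 18 symbols were current, 12 were updated and 2 matched more than 1 gene and kept their listed name. A gene's value was the mean of its probes. Genes were called at a log2 ratio of 1 in size, with no test. Named were DPP4, keratins past 2-fold, the extremes of each class and list, marker and partner keratins, and the rest by class. The members and lists were chosen with earlier results of these data known. Alternatives were other centrings, probe rules, thresholds of 0.5 and 1.5, a common spread, genes on both arrays, and other class memberships. Counting code was tested on simulated data. Python 3.11.15, NumPy 2.4.6 and pandas 2.3.3 were used.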

Additional observations from a re-analysis of the deposited data

How the results depend on the processing

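No paired analysis was possible because each comparison is a single array with no replicate. Among the counts of keratins past the threshold, 8 values moved by more than 1.5 times from the counts given above. Keratins at least 2-fold higher after depletion numbered 1 of 26 among genes with a value on both arrays (KRT38), against 2.27% of all such genes. At a threshold of 1.5, 2 of 31 were higher after depletion (KRT24 and KRT34), against 1.21% of all genes. At a threshold of 0.5, 1 of 31 keratins was lower after depletion (KRT84), against 9.80% of all genes. After transfection 1 of 27 was higher (KRT85) and 3 were lower (KRT1, KRT4 and KRT18), against 13.1% and 9.40% of all genes. At 1.5, 0 were lower after transfection, against 0.24% of all genes. With the arrays centred on ribosomal protein genes, 1 was higher (KRT85) and 0 lower after transfection. That centring raised the keratins at least 2-fold higher after depletion from 4 to 6, by KRT7 and KRT12, while the share over all genes went from 3.31% to 7.58%, and it turned 9 keratins near 0 from negative to positive after depletion and 5 after transfection. Centring by chromosome changed the sign of 3 and 1. Centring by chromosome, which lowered them, left KRT24, KRT34, KRT17 and KRT38 past 2-fold, with KRT38 at 1.005. The other probe rules could not change these values, because each keratin has a single probe. The ribosomal centring and the common spread could only raise them. Class and list medians moved by less than the SD between probes of a gene under every alternative run. That limit is wider than the ribosomal shift, which took the keratin median after depletion from 0.013 to 0.34, with all genes also at 0.34. The hair keratin median after depletion turned negative with centring by chromosome (-0.03) and among genes on both arrays (-0.13). Depth here means signal over background, which was not used.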

Other observations

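Keratin-associated proteins, the matrix proteins in which hair keratins are embedded, were counted after the data had been seen. Of 18 such genes named on the arrays, 16 had a value after depletion, with a median of 0.04 and 9 above 0, and 15 after transfection, with a median of -0.13 and 4 above 0. Over all genes 51.3% and 50.7% were above 0. With the ribosomal centring 14 of 16 and 10 of 15 were above 0, against 82.0% and 74.2% of all genes, and the median after transfection turned positive (0.10). KRTAP1-5 was the member past 2-fold, at 1.46 after depletion, where 3.31% of all genes were at least 2-fold higher. It had no value after transfection, as was the case for KRT24, KRT34 and KRT17. Of genes with a value after depletion alone, 9.99% were at least 2-fold higher. The lowest after depletion was KRTAP17-1 (-0.68), which was the highest after transfection (0.43). KRTAP4-5 (-0.73) and KRTAP4-3 (-0.65) were the lowest after transfection, at -0.26 and 0.15 after depletion. This family has close paralogs, and its probes are open to cross-hybridisation.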
